A study of Mus musculus with 4 samples.

Results

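The genes described here are the 8 of a list of B cell and plasma cell identity genes, read in naive CD8 T cells. The 8 are Cd79a, Cd79b, Blk, Cd22, Pax5, Ebf1, Mzb1 and Derl3. They were listed by name, immunoglobulin segments were left out, and all 8 were found among the 19938 genes with values. Each gene was read from the probe set that GEO's platform annotation pairs with its symbol alone, and each of the 8 had 1 such probe set. The study measured RNA on 4 Affymetrix arrays, 2 of Klf13 knockout (KO) mice and 2 of wild-type (WT) mice. Both groups are BALB/c, and in both the cells were naive CD8 T cells that flow cytometry had sorted from spleen. Which part of Klf13 is deleted, how old the mice were, and whether a group's 2 arrays hold different animals are not stated in the labels, so the errors below are those between arrays and may be technical.

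B cells recognise antigen with a membrane immunoglobulin that cannot signal by itself. Cd79a and Cd79b encode the chains that pair with it and carry the signal inward, Blk encodes a SRC family kinase that acts next to this receptor, and Cd22 encodes a lectin that dampens it. Ebf1 and Pax5 encode the transcription factors that specify and maintain the B lineage. Mzb1 and Derl3 act in the endoplasmic reticulum: Mzb1 helps antibody chains to be folded and secreted and is high in plasma cells and marginal zone B cells, and Derl3 belongs to the derlins, which remove misfolded proteins. Sorted CD8 T cells are not a B lineage population, and in an array of many cells a larger number of B lineage cells and more RNA per cell cannot be told apart.

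RefSeq promoter windows (GRCm38.p6) were matched for 5 of the 8 genes. The 250 bases before the annotated start are shown for Derl3, which passed the test below, and for Cd79a, the chain of the B cell receptor for which a window was at hand. The Derl3 window is chr10:75893148-75893397 and the Cd79a window chr7:24897247-24897496, both on the plus strand, written 5′ to 3′.
Derl3: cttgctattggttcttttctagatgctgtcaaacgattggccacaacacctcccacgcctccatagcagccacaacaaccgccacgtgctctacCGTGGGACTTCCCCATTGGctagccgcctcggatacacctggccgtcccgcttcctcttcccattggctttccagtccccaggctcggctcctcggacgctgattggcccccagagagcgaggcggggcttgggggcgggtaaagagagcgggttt
Cd79a: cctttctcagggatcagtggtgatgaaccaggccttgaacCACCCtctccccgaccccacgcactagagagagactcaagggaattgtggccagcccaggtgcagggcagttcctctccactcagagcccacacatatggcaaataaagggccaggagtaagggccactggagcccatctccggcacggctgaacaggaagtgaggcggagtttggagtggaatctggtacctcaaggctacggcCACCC
In Derl3 the capitals mark the endoplasmic reticulum stress response element, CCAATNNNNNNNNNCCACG, on the minus strand, which the factors of the unfolded protein response bind. The match begins 156 bases before the start, and 37 of 32851 promoter windows of this length (0.113%) hold this element on either strand. In Cd79a the capitals mark CACCC, a box that SP and KLF factors bind, with matches that begin 210 and 5 bases before the start. That box was found on either strand in 52% of all windows, in all of those of Cd79a, Pax5, Ebf1 and Cd22, and not in that of Derl3. The core of the EBF motif, CCCNNGGG, was found in the window of Cd22 and in 11.8% of all windows. Only exact letters were searched, so a site that departs from them, also in Cd79a, would be missed. The letters ATTTGCA of the octamer were found in none of the members' windows and in 3.56% of all windows. No searched motif overlapped another in the printed windows, and a match in letters is a description and not a bound site.

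The deposited values are on the log2 scale, and their medians over all probe sets were 4.36 and 4.31 in the KO arrays and 4.37 and 4.34 in the WT arrays. Over the genes tested, the medians were higher in KO, at 4.71 and 4.66 against 4.59 and 4.61 in the WT arrays. Klf13 had 5.46 and 5.43 in the KO arrays, against 7.01 and 7.15 in the WT arrays, so the arrays lay in the order of their labels, although a probe set outside the deleted part would check nothing. Cd8a, which encodes a chain of the CD8 coreceptor and was named after its values were seen, had 11.11 and 11.14 in the KO arrays, against 11.25 and 11.12 in the WT arrays. The limma fit over all genes called 448 of them (2.25%) at an adjusted p (Benjamini-Hochberg) under 0.05, with 238 higher and 210 lower in KO, against 237 higher and 851 lower after median centring of the arrays. No detection calls were used, and the level of a probe set also reflects how well it binds, so levels are compared between arrays and not between genes, and serve otherwise only to split the table at its median level.

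Of the 8 genes, the 2 that act in the endoplasmic reticulum, Mzb1 and Derl3, rose in KO cells, and the other 6 did not pass the test. At an unadjusted limma p under 0.05 the count was 5 of 8, with Cd79b, Cd79a and Blk added, beside 3310 of the 19938 genes. Thus 2 of 8 members were called higher in KO, as were 1.19% of the 19938 genes, and 0 of 8 were called lower, as were 1.05% of all genes. Because the members were chosen with earlier results of these data known, such shares describe the list and do not test it. The KO arrays lay above both WT arrays for 6 members (Mzb1, Derl3, Cd79b, Cd79a, Blk and Pax5), an order found for 24.4% of all genes, and overlapped with them for Ebf1 and Cd22. The median log2 fold change, KO minus WT, was 0.28 over the 8 members and 0.015 over all genes. An exact permutation test of 2 arrays against 2 cannot give a two-sided p below 0.333, so single genes were tested only in the limma fit over all genes.

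**Figure D1:**
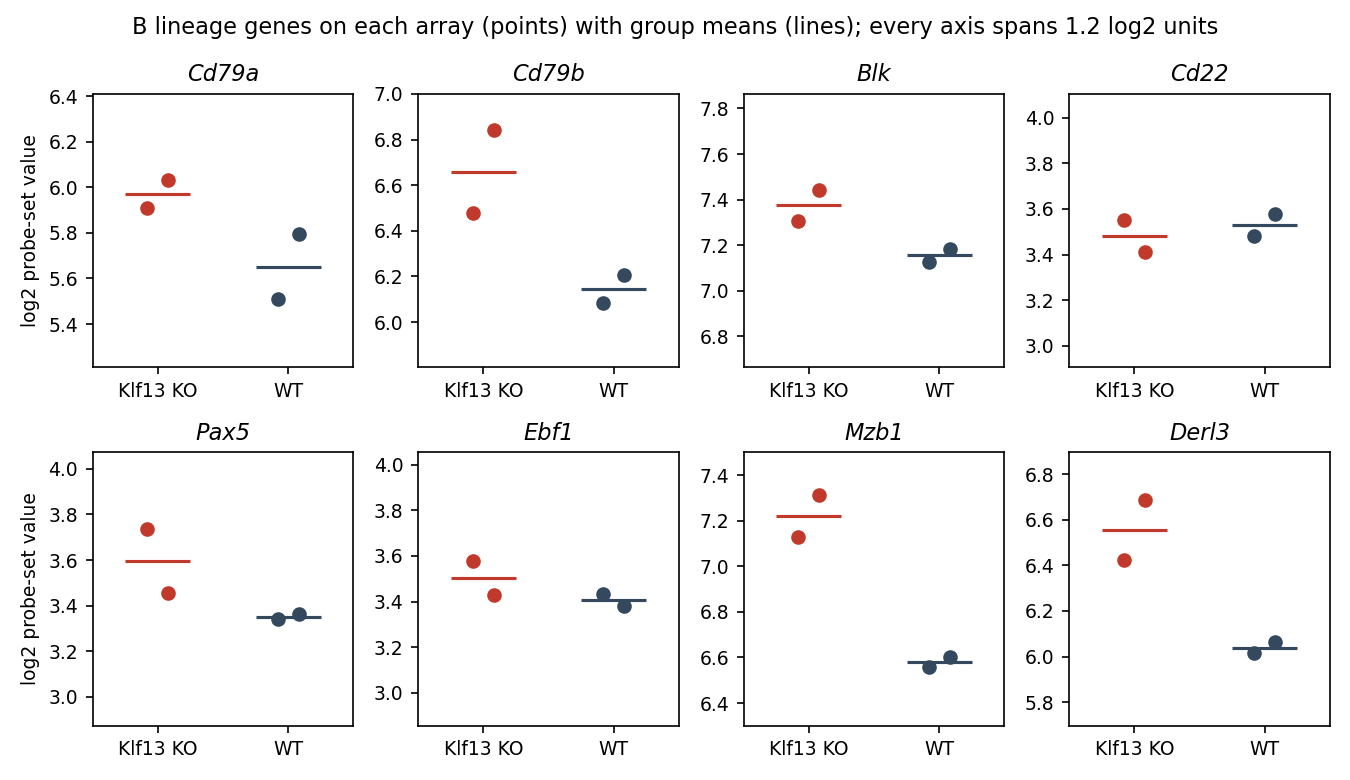
Level of each of the 8 genes (log2 probe-set value, vertical axis) on the 2 KO arrays (red, left) and the 2 WT arrays (dark, right); points are arrays, lines are group means, and each panel spans 1.2 log2 units. The KO points of Mzb1 (7.13 and 7.31) stand clear of the WT points (6.56 and 6.60), while those of Cd22 (3.55 and 3.41) lie among them (3.48 and 3.58).

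Mzb1, on chromosome 18, had 7.13 and 7.31 in the KO arrays, against 6.56 and 6.60 in the WT arrays. The groups were apart by 0.52 between the lowest KO and the highest WT array, the widest gap among the 8. Its level was 1.56-fold higher in KO cells (log2 fold change 0.64, SE 0.10, limma adjusted p = 0.00970), and 0.537% of all genes had a larger rise. Derl3, on chromosome 10, had 6.42 and 6.69 in the KO arrays, against 6.01 and 6.06 in the WT arrays, again without overlap. It was 1.43-fold higher in KO cells (log2 fold change 0.52, SE 0.11, limma adjusted p = 0.0398). That call was lost without WT replicate 1 (adjusted p = 0.144) and without WT replicate 2 (0.0565), and both calls were lost when all 35556 probe sets were tested singly, at 0.134 for Mzb1 and 0.227 for Derl3. The other derlin genes, named after their values were seen, did not pass: Derl1 differed by -0.16 (95% interval -0.40 to 0.080) and Derl2 by -0.15 (-0.40 to 0.086). Whether Derl3 differs from them was not tested.

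The 2 receptor chains stood higher in both KO arrays without passing the test. Cd79b, on chromosome 11, had 6.48 and 6.84 in the KO arrays, against 6.08 and 6.21 in the WT arrays. The KO pair was itself apart by 0.37, more than for any other member, and the log2 fold change of 0.51 (95% interval 0.24 to 0.79) had a limma adjusted p of 0.0702. Cd79b passed in 7 of 12 alternatives, and not with all probe sets tested singly (limma adjusted p = 0.297). Its log2 fold change was 0.70 without KO replicate 1, 0.58 without WT replicate 2 and 0.33, its lowest, without KO replicate 2. Cd79a, on chromosome 7, had 5.91 and 6.03 in the KO arrays, against 5.51 and 5.79 in the WT arrays. Here the WT pair was the wider of the pairs, and the difference of 0.32 (95% interval 0.066 to 0.57, limma adjusted p = 0.201) moved to 0.46 without WT replicate 2 and to 0.18 without WT replicate 1. It passed in none of the 12 alternatives.

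Blk, the receptor-proximal kinase, which some T lineage cells also express, had 7.31 and 7.44 in the KO arrays, against 7.13 and 7.18 in the WT arrays. The groups did not overlap, but the difference was small at 0.22 (95% interval 0.0041 to 0.43, limma adjusted p = 0.294). Cd22, the inhibitory lectin, had 3.55 and 3.41 in the KO arrays, against 3.48 and 3.58 in the WT arrays. Cd22 was the member with a negative difference, at -0.049 (95% interval -0.27 to 0.17, limma adjusted p = 0.850), and its groups overlapped. Cd79a and Cd22 lie on the chromosome of Klf13, and no member lies within 25 Mb of it.

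The lineage transcription factors gave no call. Pax5 had 3.74 and 3.45 in the KO arrays, against 3.34 and 3.36 in the WT arrays. The groups did not overlap, yet KO replicate 1 stood apart from the other 3 arrays, and the difference of 0.24 (95% interval -0.0012 to 0.49, limma adjusted p = 0.304) was 0.10 without that array and 0.39 without KO replicate 2 (adjusted p = 0.0472). Ebf1 had 3.58 and 3.43 in the KO arrays, against 3.43 and 3.38 in the WT arrays, and differed by 0.097 (95% interval -0.12 to 0.31, limma adjusted p = 0.673). KO replicate 2 lay within the WT pair. By their mean over the 4 arrays, Pax5, Ebf1 and Cd22 lay in the part of the table under the median of all genes tested, 4.64, and the other 5 members in the part over it.

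**Figure D2:**
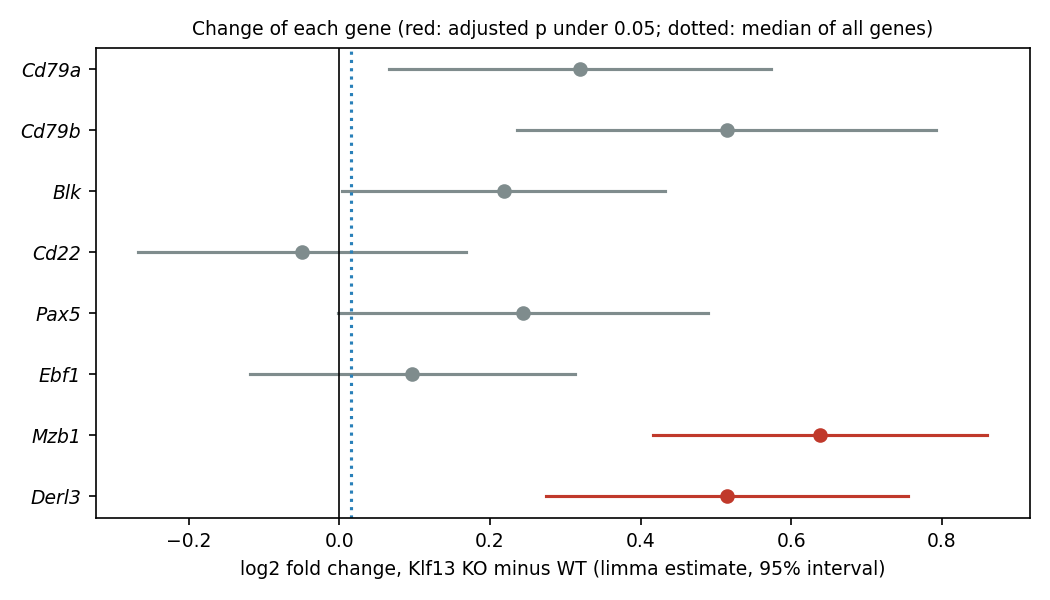
Log2 fold change of each gene, KO minus WT (horizontal axis), as the limma estimate with its 95% interval; red marks an adjusted p under 0.05 and the dotted line the median of all genes, 0.015. The intervals of Mzb1 (0.42 to 0.86) and Derl3 (0.27 to 0.76) are the red ones, and those of Pax5, Ebf1 and Cd22 include 0.

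The 2 KO arrays did not rank the members alike. Mzb1, Derl3, Cd79b, Cd79a and Blk were higher in KO replicate 2 than in KO replicate 1, and Pax5, Ebf1 and Cd22 were lower. Measured from the WT mean, Cd79b stood 0.33 higher in KO replicate 1 and 0.70 higher in KO replicate 2, and Pax5 stood 0.39 and 0.10 higher. The split follows the level of the members, and a like split ran through the whole array: KO replicate 1 read above KO replicate 2 for 69.9% of the 9969 genes under the median level and for 20.1% of the 9969 genes over it. The part of this array difference in the members' values was not tested. After cyclic loess normalization, which evens out such a trend and was chosen after the data had been seen, Mzb1 (0.72), Derl3 (0.57) and Cd79b (0.58, limma adjusted p = 0.0454) passed.

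**Figure D3:**
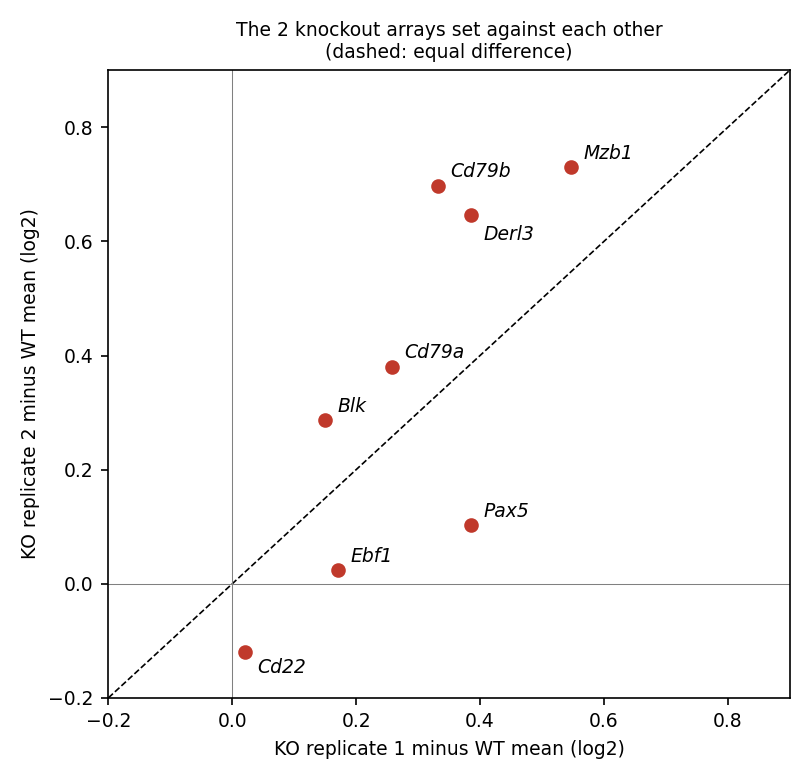
Difference of each gene from the WT mean (log2) in KO replicate 1 (horizontal axis) and KO replicate 2 (vertical axis); the dashed line marks equal differences. Of the 8 points, 5 lie above the line, with Mzb1 farthest from 0 in both arrays (0.55 and 0.73), and Pax5 (0.39 and 0.10), Ebf1 and Cd22 lie below it.

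Further genes of the B lineage were described by role, to set the 8 members among them. Of 24 measured genes of B cell receptor signalling and the B cell surface, 1 rose, 0 fell and 23 did not pass, with a median log2 fold change of 0.094 that was 0.0080 after median centring and up to 0.16 with an array left out. The gene that rose was Plcg2, a phospholipase downstream of the receptor that myeloid and NK cells also use, with 5.94 and 5.90 in the KO arrays, against 5.08 and 5.11 in the WT arrays (limma adjusted p = 0.00145). The kinase gene Syk (0.31), the inhibitory Fc receptor gene Fcgr2b (0.32) and Cd180 (0.31) did not pass. Ms4a1, which encodes CD20 of mature B cells and was named after its values were seen, had 4.19 and 4.74 in the KO arrays, against 4.40 and 4.51 in the WT arrays, so that the WT pair lay inside the KO pair (limma adjusted p = 0.984). Of the 16 B cell transcription factors 0 passed (6 at an unadjusted limma p under 0.05, beside 3310 of the 19938 genes). Their median was 0.060, which turned to -0.026 after median centring. The smallest p values there were those of Spi1 (0.49), which also serves myeloid cells, Irf8 (0.47), Ikzf3 (0.29) and Id3 (-0.23). In fits with all 4 arrays, Spi1 and Irf8 passed among genes above the median level (limma adjusted p = 0.0268 and 0.0331). They also passed with a variance trend and robust moderation (0.0365 and 0.0464) and with the replicate number as a block (0.000827 and 0.00179). Neither passed after median centring (0.0546 and 0.0607) or further quantile normalization (0.169 and 0.0971). Spi1 stood at 0.58 without WT replicate 1 and Irf8 at 0.63 without WT replicate 2.

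Of 12 genes of early B cell development, 3 rose, 0 fell and 9 did not pass, and the median was 0.16, or 0.078 after median centring. The 3 were Cd93 (log2 fold change 1.31, limma adjusted p = 8.56e-05), Flt3 (0.68, adjusted p = 0.00467) and Erg (0.64, adjusted p = 0.00699), which blood progenitors also express, Cd93 and Erg in endothelium as well. With all probe sets tested singly, Plcg2 (adjusted p = 0.0756), Flt3 (0.106) and Erg (0.112) were lost. The polymerase gene Dntt, which adds bases to antigen receptor joints, was named after its values were seen. Dntt had 3.44 and 3.84 in the KO arrays, against 3.18 and 3.24 in the WT arrays. It did not pass (limma adjusted p = 0.127), nor did Il7r (-0.35). In fits with all 4 arrays, Il7r passed among genes above the median level (limma adjusted p = 0.0479) and after median centring (0.0221). Il7r also passed with a variance trend and robust moderation (0.000322) and with the replicate number as a block (0.0425). Dntt passed with the block (0.00601). Without KO replicate 1 Dntt stood at 0.63, and without KO replicate 2 Il7r stood at -0.38. Of 27 plasma cell and secretory genes 0 passed (8 at an unadjusted limma p under 0.05, beside 3310 of the 19938 genes), with a median of 0.12, and both KO arrays lay above both WT arrays for 16 of them and below for 5, orders found for 24.4% and 23.2% of all genes. That median was 0.030 after median centring and 0.040 to 0.20 with each array left out. Jchain, which joins antibody units into polymers, had 11.04 and 11.06 in the KO arrays, against 10.70 and 10.71 in the WT arrays (log2 fold change 0.35, limma adjusted p = 0.0927). The endoplasmic reticulum genes Creld2 (0.39, adjusted p = 0.0608), Herpud1 (0.33) and Txndc5 (0.36) did not pass either. Xbp1 (0.30), the factor of the plasma cell secretory programme, and the surface markers Sdc1 (0.31) and Tnfrsf17 (0.39), all named after their values were seen, stood at limma adjusted p values of 0.194, 0.141 and 0.192. In fits with all 4 arrays, Creld2 passed among genes above the median level (limma adjusted p = 0.0293) and after further quantile normalization (0.0484). It also passed with a variance trend and robust moderation (0.0121) and with the replicate number as a block (0.0173). Herpud1 passed after that normalization (0.0493) and with that trend (0.00810). Txndc5 passed with the trend (0.00986) and the block (0.0367), and Tnfrsf17 with the block (0.0192). None of these genes passed after median centring or with all probe sets tested singly. Without WT replicate 1, Tnfrsf17 stood at 0.60.

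Related genes of the same families gave 0 calls in the limma fit. Ebf4 and Fgr had an unadjusted limma p under 0.05, as did 3310 of the 19938 genes. Ebf4 differed by 0.24, Ebf3 by -0.066 and Ebf2 by 0.024, and Pax2 and Pax8, the closest relatives of Pax5, by 0.080 and 0.053. The signs of Ebf2, Pax2 and Pax8 turned after further quantile normalization and after median centring, and those of Ebf2 and Pax8 after cyclic loess normalization. Of the SRC family kinases 4 had a value of their own, Fgr (0.29), Yes1 (0.22), Src (0.21) and Fyn (-0.20). The 6 lectins related to Cd22 had differences of 0.064 to 0.14, with Siglece (0.14), Siglech (0.12), Cd33 (0.098) and Mag (0.081) having the smallest p, and both KO arrays lay above both WT arrays for all 6, an order found for 31.8% of genes under the median level. Mag turned below 0 after median centring.

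Some markers of other cells also differed between KO and WT arrays, while most genes of each list did not pass the test. Of 14 neutrophil granule genes, 4 rose (Mpo, Elane, Ctsg and Prtn3, by 1.60 to 1.97), 0 fell and 10 did not pass. Differences were above 0 for 12 of the 14, with a median of 0.24. The mean log2 level of the 14, which includes the 4 that rose, was 4.44 to 4.47 in KO arrays and 3.78 to 3.89 in WT arrays. Of 14 myeloid and dendritic cell genes, 4 rose (Lyz2, Csf1r, Mpeg1 and Tyrobp), 0 fell and 10 did not pass. Of the 14 differences 13 were above 0, while Cd68, named after its values were seen, differed by -0.34 (limma adjusted p = 0.189). The mean level was 4.96 to 5.10 in KO arrays and 4.64 to 4.68 in WT arrays. Of 6 measured megakaryocyte and erythroid genes, Itga2b and Pf4 rose, Epb42 (-0.31) and Ppbp (0.43) did not pass, and the mean level was 5.29 to 5.39 in KO arrays and 5.10 to 5.15 in WT arrays. Of 10 NK cell genes, Tyrobp and Cd244a rose, Nkg7 fell and Itga2 (0.43) did not pass; their median difference was 0.12. Their mean level was 4.02 to 4.16 in KO arrays and 4.34 to 4.39 in WT arrays, but without Nkg7, which fell by 4.47, it was 3.76 to 3.89 in KO arrays and 3.61 to 3.67 in WT arrays. Over the 8 members the mean level was 5.51 to 5.58 in KO arrays and 5.19 to 5.27 in WT arrays. Of 15 measured genes for CD3 and CD8 chains and other T cell proteins, Cd28, a costimulatory receptor gene, fell and 14 did not pass. Among those that did not pass were Thy1 (-0.34), Cd2 (-0.19) and Zap70 (-0.18), and the CD3 and CD8 chain genes differed by -0.20 to 0.075. The mean level of the 15 was 9.09 to 9.16 in KO arrays and 9.22 to 9.24 in WT arrays. Some of these calls were lost in fits with an array left out, which leave a lone array in a group. Tyrobp and Itga2b were lost without KO replicate 1, KO replicate 2 or WT replicate 1. Pf4 was lost without either WT array, and Csf1r and Cd244a without WT replicate 1. The log2 fold change of Tyrobp was 0.62 in the fit reported, 0.59 without KO replicate 1 and 0.65 without KO replicate 2. That of Itga2b was 0.51, 0.54 and 0.48 in the same order. With all probe sets tested singly, Lyz2 (limma adjusted p = 0.107), Ctsg (0.0756), Prtn3 (0.102) and Cd28 (0.0985) were lost, as were Csf1r, Mpeg1, Tyrobp, Cd244a, Itga2b and Pf4. After further quantile normalization, Mpeg1 (0.0629), Tyrobp (0.0753), Pf4 (0.114) and Itga2b (0.0504) were lost, and after cyclic loess normalization Mpeg1, Tyrobp and Pf4. In fits with all 4 arrays, Thy1 passed after median centring (limma adjusted p = 0.0261) and with a variance trend and robust moderation (0.00213). With the replicate number as a block, Thy1 (0.0466) and Ppbp (0.00576) passed. The part of other cells in the values of the 8 members was not tested.

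**Figure D4:**
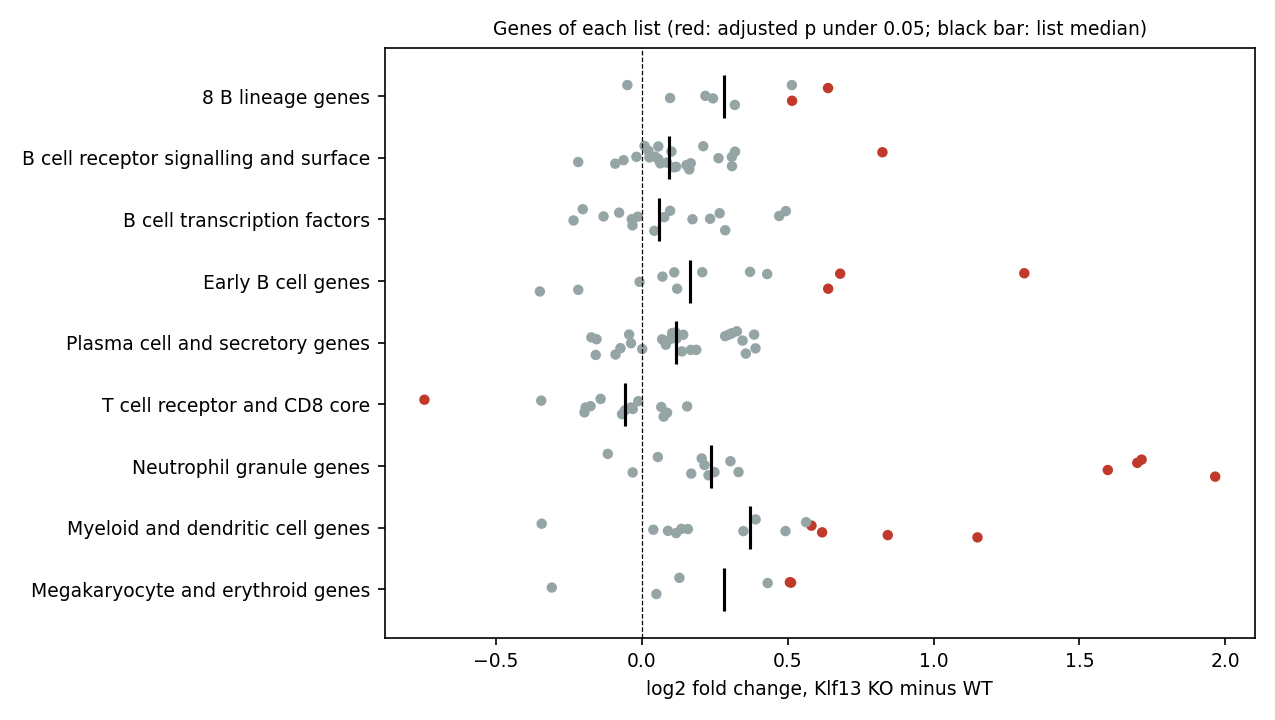
Log2 fold change, KO minus WT (horizontal axis), of each measured gene of 9 lists (rows); red marks an adjusted p under 0.05 and black bars the list medians. The median of the 8 B lineage genes (0.28) lies close to that of the megakaryocyte and erythroid genes (0.28) and of the neutrophil genes (0.24) and below that of the myeloid genes (0.37), and the red points reach 1.97 at Mpo.

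The genes whose values ran closest to the mean course of the 8 members over the 4 arrays were the zinc-finger factor gene Hivep1, the phosphatase gene Ptpn14, Fgr, the lectin gene Clec7a and Nxph4. Their root mean square distances from that course were 0.0052 to 0.014 on the log2 scale. With 4 arrays this likeness is a description. The 5 genes were picked for this course, which sets the size of their differences (0.29 to 0.33), and none of them passed the limma test.

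**Figure D5:**
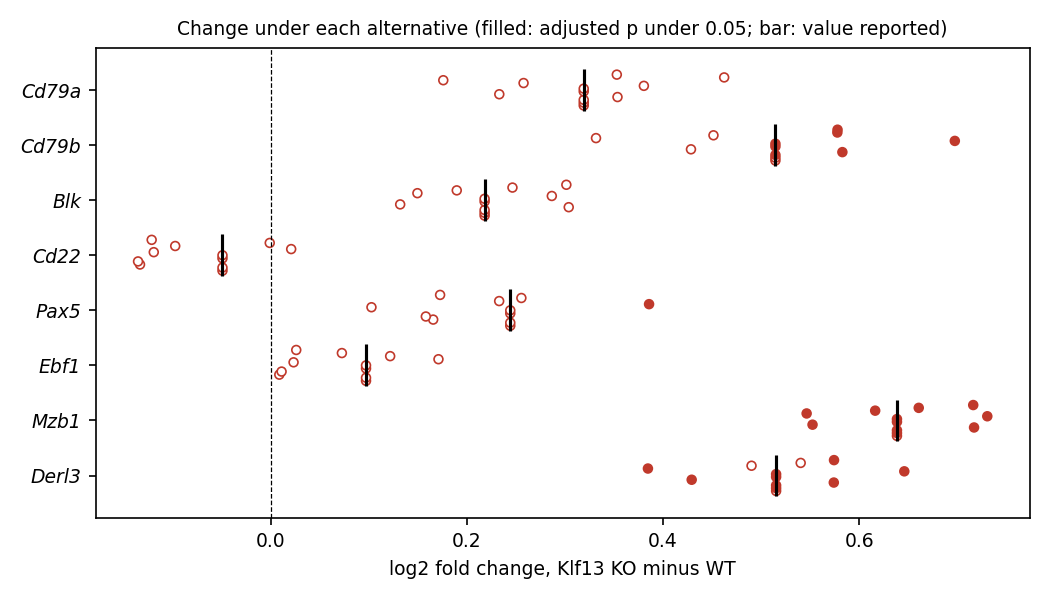
Log2 fold change, KO minus WT (horizontal axis), of each gene under each alternative way of processing (points, up to 12 a gene); filled points have an adjusted p under 0.05 and black bars mark the values reported. Mzb1 stays between 0.55 and 0.73 and is filled in 11 of 12, Derl3 lies between 0.38 and 0.65 and is filled in 9, and Cd79b lies between 0.33 and 0.70 and is filled in 7.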

How the data were processed

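Per the labels' protocols, 200 ng of RNA per sample was primed at random, amplified and biotin-labelled for 1 array. The authors deposited log2 values per probe set, and the submitters' processing notes list Partek and RMA with no version. RMA as a method includes quantile normalization between arrays, but the deposited columns do not share 1 distribution (upper quartiles 6.52 and 6.63 in KO arrays, 6.67 and 6.66 in WT arrays). The number of arrays limits the precision. Of 35556 probe sets, 21789 were paired with 1 gene symbol, 1621 with several and 12146 with none; RefSeq names replaced older symbols by gene ID (21698 matched). Each gene was read from its probe set with the highest mean, with no filter on level. KO was compared with WT in R 4.3.3 with limma 3.58.1 (lmFit, then eBayes, with genotype alone; two-sided p adjusted over 19938 genes by Benjamini-Hochberg; threshold 0.05; prior degrees of freedom 8.06), checked on simulated data. The 8 members and the lists were chosen with earlier results of these data known. Named were the members, Klf13, in each list the called genes and otherwise up to 4 with the smallest p, and the 5 genes nearest to the members' mean course; other names are marked. Listed genes without a probe set of their own were not analysed here. Alternatives were single testing of all probe sets, averaging over probe sets per gene, genes above the median level, 3 rescalings (quantile, median centring and, added later, cyclic loess), robust moderation with a variance trend, a replicate block, and each array left out, where a lone array is assumed to vary like the other group.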

Additional observations from a re-analysis of the deposited data

How the results depend on the processing

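The counts of calls, the members' median and the change of each named gene were recomputed under 12 alternatives, of which genes above the median level leave out Pax5, Ebf1 and Cd22. The number of genes called, 448, was 39 with all probe sets tested singly, 1088 after median centring, 831 with a variance trend and robust moderation, and 264 to 1536 with each array left out in turn; it was 264 without KO replicate 1, 1536 without KO replicate 2 and 277 without WT replicate 1. The number of members called, 2, was 0 with all probe sets tested singly and 1 to 3 with each array left out, with 1 without WT replicate 1. The members' median of 0.28 was 0.20 after median centring and 0.51 among genes above the median level, which keeps 5 members. With each array left out, that median was 0.21 to 0.36. With the replicate number as a block (the replicate block), 1187 genes were called (569 higher) and Cd79b joined Mzb1 and Derl3; the numbers share no stated origin, and same-numbered arrays deviated together with r = 0.0074 across genes. The signs of differences near 0 turned. Further quantile normalization gave Ebf2 -0.040, Pax2 -0.0027, Pax8 -0.038 and Ms4a1 -0.089; median centring gave Ebf2 -0.062, Pax2 -0.0066, Pax8 -0.033, Mag -0.0047 and Ms4a1 -0.076; cyclic loess gave Ebf2 -0.042, Pax8 -0.017 and Ms4a1 -0.058. With each array left out in turn, Cd22 ran from -0.12 to 0.021, Ebf2 from -0.0028 to 0.050 and Ms4a1 from -0.27 to 0.29. Causes were not tested. The 6 members whose KO arrays lay above both WT arrays did so after each of the 3 rescalings, beside 10.7% to 23.7% of all genes.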

Other observations

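How often the arrays of the groups stood apart varied with level. Both KO arrays lay above both WT arrays for 31.8% of the 9969 genes under the median level and for 17.0% of those over it, while 0.612% and 1.78% of them were called higher in KO. Of the members in this order, Pax5 lies under the median level, and Mzb1, Derl3, Cd79b, Cd79a and Blk lie over it. Jchain had an SD between arrays of 0.012 in KO and 0.0029 in WT, and passed the test with a variance trend and robust moderation (limma adjusted p = 6.42e-05) but not in the fit reported; over all alternatives its adjusted p ran up to 0.608.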
